A study of Mus musculus with 14 samples.

Results

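The genes described here encode the proteins of the mitochondrial ribosome, taken as every symbol that starts with Mrpl or Mrps followed by a number, without the 5 pseudogene symbols ending in -ps. This gave 77 genes of the 46983 in each table, 48 with Mrpl symbols and 29 with Mrps symbols. The symbols are named for the large and the small subunit, but Mrps18a, Mrps30 and Mrps36 do not belong to the small subunit, as given below. RNA was sequenced from mouse corpus callosum, the main white matter tract joining the brain's hemispheres, in 4 libraries labelled WT and 4 labelled Qk-KO. It was also sequenced from oligodendrocytes grown by differentiating neural stem cells (NSC), in 3 libraries of each label. The comparison asks what the loss of Qk, the gene of the RNA-binding protein quaking, does to RNA levels in each system.

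The mice were of an FvB/C57BL6 hybrid background and were given tamoxifen when 8 weeks old, with the tissue taken 4 days later. Mice labelled Qk-KO were Plp-CreERT2;QKLoxP/LoxP and mice labelled WT were Plp-CreERT2;QKLoxP/+, so the controls carried the Cre transgene and 1 floxed copy too. Plp-CreERT2 is driven by a myelin gene promoter, so deletion was aimed at oligodendrocyte-lineage cells while the RNA came from the whole tissue. The cultures, labelled Qk-/- and WT, were at passages 7, 12 and 13 and differentiated with 100 ng/ml IGF-1, 50 ng/ml triiodothyronine (T3) and 2 mM GlutaMAX-I. Each passage, and each name stem, holds 1 culture of either label, so the cultures form 3 pairs, but the deposited fit has no term for the pair and its calls are those of 3 against 3 unpaired libraries. In the sample names, 40HT marks each Qk-KO culture and EtOH each WT culture, so the effects of that treatment and of genotype cannot be told apart.

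The mitochondrial ribosome translates the few messenger RNAs of the mitochondrial genome, all of which encode membrane subunits of the respiratory chain and ATP synthase. Its ribosomal RNAs are made inside the organelle, whereas every one of its proteins is encoded in the nucleus, made in the cytosol and imported. Part of the proteins descend from bacterial ribosomal proteins, and part were gained in mitochondria. Oligodendrocytes draw on mitochondrial respiration while they build myelin.

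Each library column of the deposited tables holds a fitted mean of a model, as log2 of the value plus 1, so libraries of a genotype differ by 1 constant factor at every gene and show no replicate spread. For Mrpl32, for example, the fitted counts of the culture libraries labelled WT were 1220, 956 and 1041, and those of the cultures labelled Qk-KO were 1911, 1761 and 1640. For Mrps6 the corresponding fitted counts were 2329, 1825 and 1987 against 1588, 1464 and 1363. The spacing within each trio is the library's size factor, and it is the same for both genes. Levels are therefore given below as 1 fitted normalized count per genotype, and whether single libraries of the genotypes overlap cannot be read from these files. Errors and adjusted p-values are those of the Wald test of DESeq2 in the authors' deposited tables, turned to labelled Qk-KO minus labelled WT and called at an adjusted p under 0.05 (Benjamini-Hochberg over all genes tested). Because the labels do not say whether libraries came from separate cultures or animals, these p-values measure the spread between the libraries as the authors fitted it.

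The depth of a library, read as the sum of its fitted counts, ran from 15048646 to 27666519 in callosum and from 38325833 to 48912999 in culture. Qk itself was not lower in libraries labelled Qk-KO. In the authors' deposited tables its log2 change was 0.32 ± 0.12 (SE; adjusted p = 0.162) in callosum and 0.66 ± 0.14 (adjusted p = 4.19e-05) in culture. These values count reads over the whole gene, floxed part or not, and so check neither the deletion nor the labels.

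Of the 77 genes, 76 were tested in both systems. Mrpl53 alone was listed at a mean of 0 in both. GENCODE M21 places it on chromosome 6 (GRCm38, 83109040 to 83109939, plus strand), where 88.0% of its 790 exon bases are shared with 2 other annotated genes, 695 of them with Gm42688 on the same strand, so its value says nothing of its expression. The other genes were expressed at moderate levels. Their mean normalized counts ran from 106 to 1154 in callosum (median 428, against 236 for all genes tested) and from 289 to 3343 in culture (median 1093, against 498).

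Divided by exon length, the levels spread over a wider range. In callosum labelled WT the fitted CPM per kb of annotated exon ran from 1.09 for Mrpl33 to 33.7 for Mrpl41, with a median of 8.74. In culture labelled WT it ran from 1.02 for Mrpl33 to 72.5 for Mrps21, with a median of 8.68. Mrpl41, a large-subunit protein without a bacterial counterpart, was also among the highest in culture at 42.9 CPM per kb, beside Mrpl34 at 55.0 CPM per kb. The order of the genes was much the same in both systems (Spearman rho 0.88 over 76 genes, a description across genes that share exon lengths). The tables were normalized separately, so levels set across them are descriptive. Mrps6, the homologue of bacterial S6, stood at 6.36 CPM per kb in callosum labelled WT and 31.1 CPM per kb in culture labelled WT. Exon length here is the union of all annotated exons, which lowers the value of genes with long minor isoforms.

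**Figure D1:**
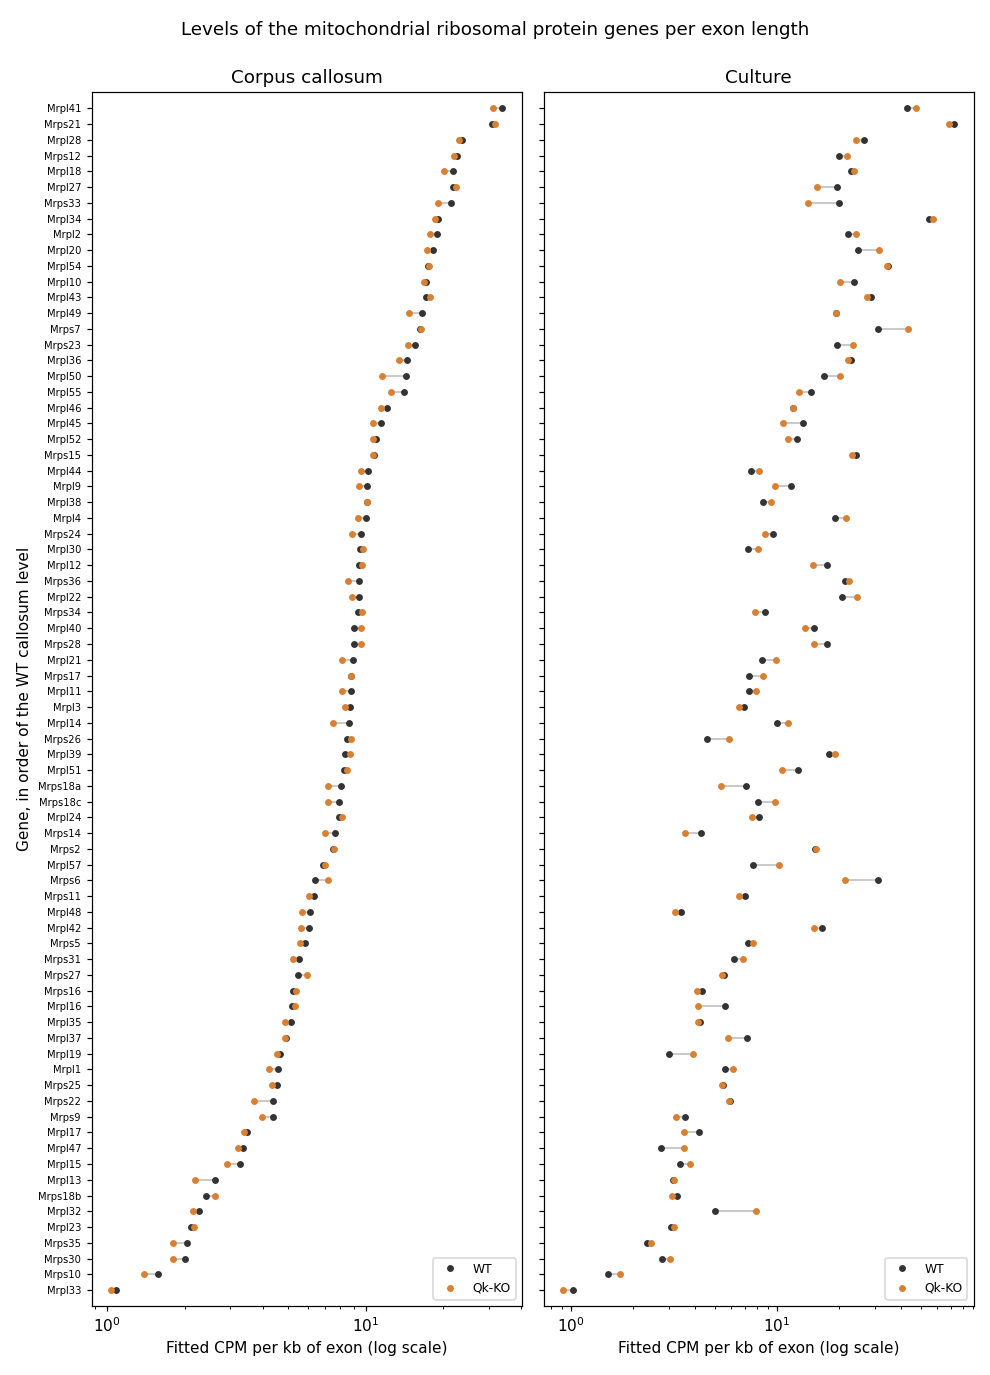
Fitted CPM per kb of annotated exon (horizontal log axis) of the 76 genes with reads, ordered by the level in callosum labelled WT; black points are WT and orange points Qk-KO, 1 fitted value per genotype. In callosum the orange points stay close to the black ones, and in culture the widest gaps are those of genes such as Mrps6, Mrpl32 and Mrps33.

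In the corpus callosum, no mitochondrial ribosomal protein gene passed the test. The count was 0 of 76, where 2.32% of all 19935 genes tested were called in either direction. At an unadjusted p under 0.05 it was 3 of 76 (3.95%, against 8.08% of all genes), and with a Student reference for the same score it was 0. The values lay in a narrow range with most of them slightly below 0. They ran from -0.33 to 0.14 on the log2 scale with a median of -0.09 (all genes: -0.01). Their SD over genes was 0.0928, against 0.308 for all genes and 0.245 for genes with a mean of at least 100. Values below 0 made up 58 of 76 (76.3%), against 51.8% of all genes and 54.9% of genes with a mean of at least 100, and 52 of 76 with scaling by library size alone. The summed fitted CPM of the 77 genes was 1686 in callosum labelled WT and 1616 in callosum labelled Qk-KO.

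The errors give the changes in whole-tissue RNA that each deposited estimate allows, not those in the deleted cells alone. Whether the fit pulled estimates towards 0 is not given in the sources used here. At means under 1 the largest absolute log2 change was 1.064 in callosum and 0.96 in culture, which is small for such low counts. If estimates were pulled in, the intervals and sizes given here for both systems understate the changes. The SE of the 76 log2 changes in the authors' deposited table ran from 0.0955 to 0.198 with a median of 0.128. For 75 of 76 genes (98.7%) the 95% interval lay wholly within a 1.5-fold change in either direction, which held for 82.9% of all genes with a mean of at least 100. The exception was Mrpl14, a large-subunit protein on the subunit interface, with an interval from -0.62 to 0.15.

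The 3 genes at an unadjusted p under 0.05 all had values below 0. Mrpl50, a large-subunit protein gained in mitochondria, had fitted normalized counts of 617.9 in callosum labelled WT and 491 in callosum labelled Qk-KO. Its log2 change in the authors' deposited table was -0.33 ± 0.12 (SE, 4 against 4 libraries; adjusted p = 0.149 by DESeq2). Mrpl13, homologous to a bacterial large-subunit protein, went from 423 to 349 normalized counts, a log2 change of -0.28 ± 0.14 in the authors' deposited table (adjusted p = 0.605 by DESeq2). Mrps22, a small-subunit protein without a bacterial homologue, went from 356 to 296, a log2 change of -0.27 ± 0.13 (adjusted p = 0.600 by DESeq2) in the same authors' deposited table. None of the 3 differences was larger than the error allows after adjustment.

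The most abundant genes that did not pass in callosum had close values in both genotypes. Mrps17, a homologue of bacterial S17, had 1159 normalized counts in callosum labelled WT and 1148 in callosum labelled Qk-KO, a log2 change of -0.01 ± 0.12 in the authors' deposited table. Mrpl3, at the peptidyl transferase side of the large subunit, had 1187 against 1116 (-0.09 ± 0.10 in the authors' deposited table). Mrpl48 had 1019 against 932 (-0.13 ± 0.14 in the authors' deposited table).

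The subunits had like medians in callosum. The median log2 change was -0.09 for the 47 tested Mrpl genes, with 37 below 0, and -0.09 for the 29 Mrps genes, with 21 below 0. By structure, with Mrps18a and Mrps30 in the large subunit and Mrps36 left out, it was -0.10 for 49 genes and -0.07 for 26. By descent, the median was -0.09 for the 46 genes with bacterial homologues and -0.10 for the 29 tested genes gained in mitochondria. Mrpl10, Mrpl11 and Mrpl12 belong to the stalk that recruits translation factors, and Mrpl12 also binds the mitochondrial RNA polymerase in human cells. Their log2 changes in the authors' deposited table were -0.05 ± 0.13, -0.14 ± 0.11 and 0.01 ± 0.15, and none passed. Mrps12, part of the decoding centre, stood at -0.06 ± 0.11 in the authors' deposited table.

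In culture, 7 of the 76 genes fell and 1 rose in libraries labelled Qk-KO. Mrps6, Mrps33, Mrpl16, Mrps18a, Mrpl45, Mrpl27 and Mrpl37 fell by between 0.38 and 0.62 on the log2 scale, and Mrpl32 rose by 0.58. Among all 17503 genes tested, 15.2% were called lower and 13.3% higher, so the share of the 76 genes called lower (9.21%) and higher (1.32%) was below the background in each direction. Among genes with a mean of at least 100, which all 76 have, the background was 19.1% lower and 16.7% higher. At an unadjusted p under 0.05, 17 of the 76 genes passed (22.4%, against 37.4% of all genes).

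The sizes of the changes in culture can be read beside those of all genes. The log2 changes of the 76 genes ran from -0.62 to 0.58 with a median of -0.08 (all genes: 0.01). Their SD over genes was 0.230, against 0.713 for all genes and 0.659 for genes with a mean of at least 100. Values below 0 numbered 47 of 76, against 48.9% of all genes, but 38 of 76 when libraries are scaled by their total alone, which moves every log2 change up by 0.0772. The 95% interval lay within a 1.5-fold change for 56 of 76 genes (73.7%), against 39.2% of all genes with a mean of at least 100. The summed fitted CPM of the genes was 2075 in culture labelled WT and 2102 in culture labelled Qk-KO, while the summed normalized counts had a ratio of 0.960, so the direction of the sum flips with the scaling.

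**Figure D2:**
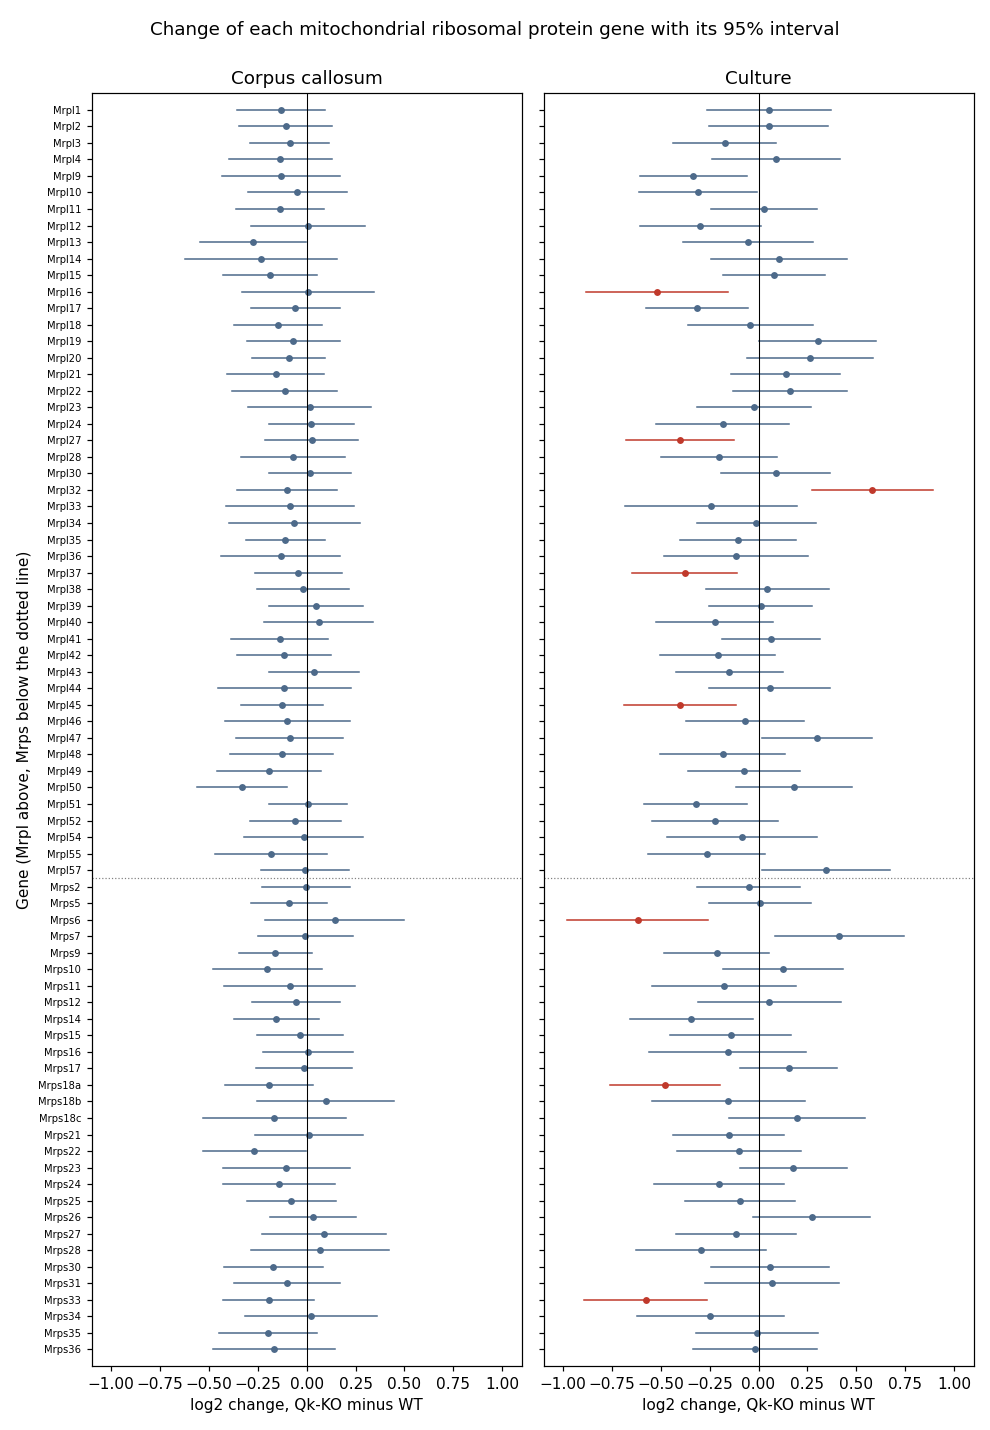
Log2 change (Qk-KO minus WT, horizontal axis) of each of the 76 tested genes in corpus callosum (left) and culture (right); points are the deposited estimates, bars their 95% intervals, and red marks an adjusted p under 0.05. No gene is red in callosum and 8 are in culture, of which Mrpl32 alone lies above 0.

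Mrpl32 was the gene that rose. It encodes the homologue of bacterial L32, a large-subunit protein that the m-AAA protease of the inner membrane must cut before the subunit can be assembled. On GRCm38 it lies on chromosome 13, 14608184 to 14613165, minus strand. Its fitted normalized counts were 1117 in culture labelled WT and 1672 in culture labelled Qk-KO. The log2 change in the authors' deposited table was 0.58 ± 0.16 (SE, 3 against 3 libraries; adjusted p = 0.00155 by DESeq2). In callosum it had 230 against 215 normalized counts and did not pass (log2 change -0.10 ± 0.13 in the authors' deposited table).

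Among genes of the protease that cuts it, only Afg3l2 and Spg7 were looked up, after its value was known. Afg3l2 had 1393 normalized counts in culture labelled WT and 1285 in culture labelled Qk-KO, a log2 change of -0.12 ± 0.14 in the authors' deposited table (adjusted p = 0.588 by DESeq2). Spg7, the partner subunit, had 1773 against 1683, a log2 change of -0.08 ± 0.15 in the authors' deposited table (adjusted p = 0.776 by DESeq2).

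Mrps6 had the most negative log2 change of the 76 genes. It lies on chromosome 16 (GRCm38, 92058270 to 92112227, plus strand). Its fitted normalized counts were 2132 in culture labelled WT and 1389 in culture labelled Qk-KO, and it fell by 0.62 ± 0.18 on the log2 scale in the authors' deposited table (adjusted p = 0.00460 by DESeq2). In callosum it stood at 199 against 220 (log2 change 0.14 ± 0.18 in the authors' deposited table). The myo-inositol transporter gene Slc5a3 lies within the Mrps6 locus on the same strand, and it fell with Mrps6 in culture, by 0.59 ± 0.23 in the authors' deposited table (adjusted p = 0.0395 by DESeq2). Exons of 2 other annotated genes cover 19.9% of the 1533 exon bases of Mrps6. The gene sharing most of them is Gm49711 on the same strand, with 305 bases, and its change is not given here. Reads of the locus may be divided between these genes, and the part of this in the change of Mrps6 was not tested.

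Mrps33 encodes a small-subunit protein gained in mitochondria (chromosome 6, 39801804 to 39810988, minus strand). It went from 1501 to 1005 normalized counts in culture and fell by 0.58 ± 0.16 on the log2 scale in the authors' deposited table (adjusted p = 0.00195 by DESeq2). In callosum it had 730 against 638, for which the authors' deposited table gives a log2 change of -0.20 ± 0.12 (adjusted p = 0.797). Mrps18a is related to bacterial S18, but in structures of the mammalian ribosome it sits in the large subunit (chromosome 17, 46110986 to 46128910, plus strand). It went from 1167 to 838 normalized counts in culture and fell by 0.48 ± 0.14 in the authors' deposited table (adjusted p = 0.00506 by DESeq2).

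The other 4 genes that fell belong to the large subunit. Mrpl16 (chromosome 19, 11770391 to 11774960, plus strand), homologue of bacterial L16, went from 796 to 555 normalized counts, a log2 change of -0.52 ± 0.19 in the authors' deposited table (adjusted p = 0.0217). Mrpl27 (chromosome 11, 94653767 to 94660089, plus strand), whose bacterial homologue reaches towards the peptidyl transferase centre, went from 862 to 652, a change of -0.40 ± 0.14 in the authors' deposited table (adjusted p = 0.0194). Mrpl45 (chromosome 11, 97315716 to 97329920, plus strand), which ties the ribosome to the inner membrane, went from 1552 to 1173, a change of -0.40 ± 0.15 in the authors' deposited table (adjusted p = 0.0248). Mrpl37 (chromosome 4, 107055874 to 107066868, minus strand), gained in mitochondria, went from 1427 to 1098, a change of -0.38 ± 0.14 in the authors' deposited table (adjusted p = 0.0240). These 4 had the highest adjusted p-values of the 8, and with scaling by library size alone they had adjusted p-values between 0.0547 and 0.0817 and were no longer called.

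The calls rest on a normal reference for 3 against 3 libraries. With a Student reference at 4 degrees of freedom the 8 genes had adjusted p-values from 0.142 to 0.212 and none was called, and no other gene of the culture table was.

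Just outside the threshold stood Mrps7, the homologue of bacterial S7 and the most abundant of the genes in culture. It went from 2867 to 3819 normalized counts, a log2 change of 0.41 ± 0.17 in the authors' deposited table (adjusted p = 0.0503 by DESeq2). With scaling by library size alone its log2 change was 0.49 (adjusted p = 0.0158). Of its exon bases 11.9% are shared with 2 other genes, 127 of them with Gga3 on the opposite strand. Gga3 rose by 0.41 ± 0.14 in the authors' deposited table (adjusted p = 0.0142 by DESeq2). Mif4gd, also looked up as an overlapping gene, stood at -0.17 ± 0.20 there (adjusted p = 0.583 by DESeq2). The part of this overlap in the change of Mrps7 was not tested. The strand setting of the counting is not given in the sources used here, so reads of the shared bases cannot be told apart. Mrpl51 at -0.32 ± 0.13 (adjusted p = 0.0578 in the authors' deposited table) was the nearest on the other side.

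Of the other abundant genes in culture, Mrpl42 had 2727 against 2359 normalized counts (log2 change -0.21 ± 0.15 in the authors' deposited table) and Mrpl4 had 2248 against 2393 (0.09 ± 0.17 in the authors' deposited table). The stalk genes Mrpl10 and Mrpl12 had log2 changes of -0.31 ± 0.15 and -0.30 ± 0.16 in the authors' deposited table, with adjusted p-values of 0.119 and 0.151. Mrpl11 stood at 0.03 ± 0.14 and Mrps12 at 0.06 ± 0.19 in the authors' deposited table. Mrps30, a large-subunit protein despite its symbol, stood at 0.06 ± 0.15 in the authors' deposited table. Mrps36 carries a ribosomal symbol but its protein is a part of the ketoglutarate dehydrogenase complex, and it stood at -0.02 ± 0.16 in the authors' deposited table.

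Subunits and descent did not sort the culture values into separate ranges. Among 47 tested Mrpl genes 1 was called higher and 4 lower with a median log2 change of -0.07, and among 29 Mrps genes 0 were called higher and 3 lower with a median of -0.10. By structure, the large subunit had 1 higher and 5 lower of 49 (median -0.07). The small subunit had 0 higher and 2 lower of 26 (median -0.11). Genes with bacterial homologues included 1 higher and 3 lower of 46 (median -0.05), and genes gained in mitochondria included 4 lower of 29 (median -0.09), counting Mrps18a with the latter as the naming of the structures does.

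**Figure D3:**
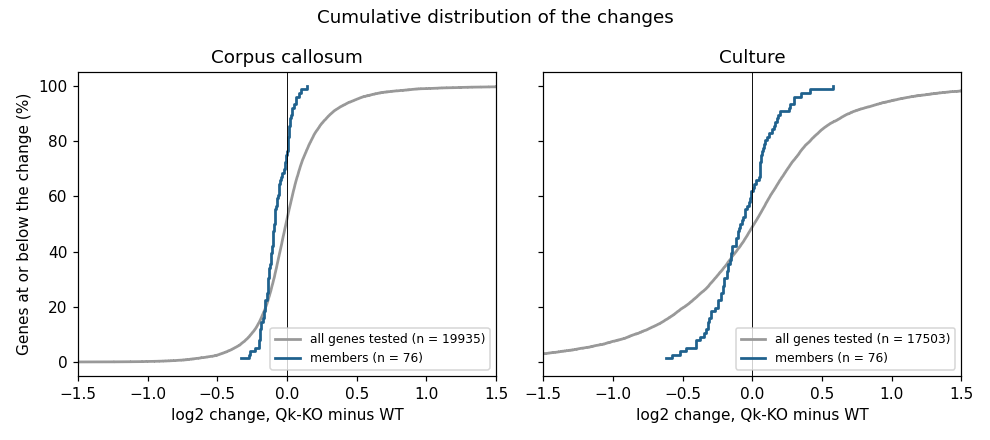
Cumulative share (vertical axis, %) of log2 changes (horizontal axis, Qk-KO minus WT) for the 76 genes (blue) and for all genes tested (grey), in callosum (left) and culture (right). The blue curves are steeper than the grey ones in both panels, with SDs of 0.0928 against 0.308 and 0.230 against 0.713. The grey curves include genes of low counts, and for genes with a mean of at least 100 the SDs were 0.245 and 0.659.

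Promoter sequence was read for the genes of the 4 smallest adjusted p-values in culture, to show what stands before the gene that rose and before 3 that fell. The windows come from RefSeq (GRCm38.p6) and run from 250 bases before to 50 bases after the annotated start, and 68 of the 77 genes had one (not Mrpl4, Mrpl13, Mrpl15, Mrpl19, Mrpl38, Mrpl54, Mrps28, Mrps34 and Mrps35). The stretches printed are not covered by any exon of GENCODE M21 and are cut to at most the 150 bases nearest the start. They run 5′ to 3′ on the gene's strand, with letters of a searched motif in capitals (for Mrpl32 the inverted CCAAT, for Mrps18a the ETS letters). The Mrps18a window also holds CCAAT letters outside annotated exons, at position -196 from the start, beyond the stretch printed. Other matches outside the stretches printed are the YY1 letters AAGATGGC at position -242 in Mrpl32 and position 12 in Mrps18a. The Mrps33 window holds the ETS letters at position 39, and the Mrps6 window holds none of the searched letters.
Mrpl32, chr13:14613166-14613239, minus strand: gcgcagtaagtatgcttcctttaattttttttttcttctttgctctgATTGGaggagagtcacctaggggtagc
Mrps33, chr6:39810989-39811138, minus strand: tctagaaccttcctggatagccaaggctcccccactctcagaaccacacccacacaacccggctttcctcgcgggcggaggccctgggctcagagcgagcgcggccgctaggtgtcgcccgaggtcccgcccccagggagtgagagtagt
Mrps6, chr16:92058120-92058269, plus strand: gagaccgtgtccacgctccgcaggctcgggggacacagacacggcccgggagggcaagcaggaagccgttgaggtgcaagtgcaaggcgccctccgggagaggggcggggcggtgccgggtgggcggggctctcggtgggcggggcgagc
Mrps18a, chr17:46110836-46110985, plus strand: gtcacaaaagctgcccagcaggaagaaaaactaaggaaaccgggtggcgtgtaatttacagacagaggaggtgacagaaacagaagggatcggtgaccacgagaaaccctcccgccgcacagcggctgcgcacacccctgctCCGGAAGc

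Closer to its RefSeq start, inside the first exon as GENCODE draws it, Mrpl32 holds a repeated motif of nuclear respiratory factor 1 (NRF-1), an activator of many genes for mitochondrial proteins. The 29 bases that begin 87 bases before the RefSeq start are shown with the NRF-1 letters GCATGCGC, on either strand, in capitals.
Mrpl32, chr13:14613096-14613124, minus strand: GCGCATGCGCaagaggggcctGCGCATGC
The first capitals hold the letters on both strands, overlapping, and a further match begins 22 bases before the start. None of the windows of Mrps33, Mrps6 and Mrps18a holds these letters. Other genes of the group hold them too, and their log2 changes in culture went both ways in the authors' deposited table. They were -0.33 for Mrpl9, -0.32 for Mrpl17, -0.31 for Mrpl10, -0.25 for Mrpl33 and -0.15 for Mrps18b. For Mrpl22 and Mrpl39 they were 0.16 and 0.01. None of these genes was called, and a link of the letters to the changes was not tested.

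Across the genes as a group, some motifs were more common than in all promoters. GCATGCGC stood in 8 of 68 windows (11.8%), against 3.0% of 27025 genes. The ETS-family letters CCGGAAG stood in 25 of 68 (36.8%), against 9.9%, and the YY1 letters AAGATGGC in 12 (17.6%), against 3.2%. The E-box CACGTG stood in 5 (7.4%, against 8.1%) and CCAAT in 27 (39.7%, against 41.1%). Both strands were searched, no motif contains another, and the windows of these genes were richer in GC (median 58.0%, against 52.8%). All 8 genes called in culture had a window, and 1 of them held GCATGCGC, 3 CCGGAAG and 3 AAGATGGC. A match to these letters is a description of the window and shows no binding.

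Compared directly, the change in culture differed from that in callosum for 3 of the 76 genes (two-sided z test on the 2 log2 changes of the authors' deposited tables, with Benjamini-Hochberg adjustment over 16601 genes). The background for this test was 21.5%. For Mrpl32 the culture change was 0.68 ± 0.20 above the callosum change (adjusted p = 0.00640). For Mrpl50 it was 0.51 ± 0.19 above (adjusted p = 0.0370), from -0.33 in callosum and 0.18 ± 0.15 in culture in the authors' deposited tables. For Mrps6 it was -0.76 ± 0.26, that is below the callosum change (adjusted p = 0.0201). At an unadjusted p under 0.05 the count was 6.

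For the 76 genes together the difference had a median of -0.0048, with 38 above 0 and 38 below. In sign, 32 genes lay below 0 in both systems, 3 above 0 in both, 26 below in callosum and above in culture, and 15 the reverse. The values of the systems did not rise together over the genes (Pearson r -0.18, Spearman rho -0.20, given as a description). Mrps33, which fell in culture, differed from its callosum value by -0.38 ± 0.20 (adjusted p = 0.168), so a difference between the systems was not shown for it.

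**Figure D4:**
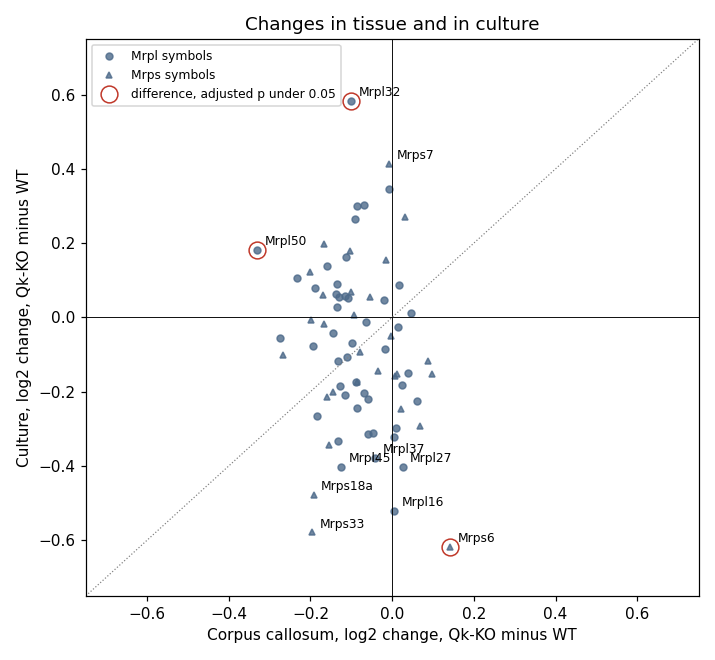
Log2 change in culture (vertical axis) against log2 change in corpus callosum (horizontal axis), both Qk-KO minus WT, for the 76 genes; circles are Mrpl and triangles Mrps symbols, and red rings mark the 3 genes whose changes differed between systems. The points spread along the vertical axis from -0.62 to 0.58 and along the horizontal axis from -0.33 to 0.14.

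Genes around the mitochondrial ribosome were read from lists written with earlier results of these data known. The 6 mitoribosomal proteins with other symbols (Dap3, Ptcd3, Chchd1, Aurkaip1, Gadd45gip1 and Ict1) included 0 called in either system, at an unadjusted p under 0.05 as well. The most abundant in culture, Ptcd3, a small-subunit protein with pentatricopeptide repeats, went from 2501 to 2741 normalized counts (log2 change 0.13 ± 0.13 in the authors' deposited table). In callosum none of the lists had a called gene by DESeq2. At an unadjusted p under 0.05 the lists of translation factors, assembly factors and regulators of biogenesis had 0 there. The list of transcription and RNA processing had 2 there (10.5%, against 8.08% of all genes). It also holds genes of mitochondrial DNA replication, such as Peo1 and Polg, and Peo1 was among those 2.

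The counts in culture that follow stand beside 28.6% of all genes called, 15.2% lower and 13.3% higher. Among 12 mitochondrial translation factors, 2 fell and 1 rose in culture (25% called, near that background). Gfm1, the elongation factor that moves the ribosome along the message, went from 2933 to 2145 normalized counts and fell by 0.45 ± 0.15 in the authors' deposited table (adjusted p = 0.0124). Tufm, which delivers aminoacyl-tRNA, went from 2755 to 2058 and fell by 0.42 ± 0.14 in the authors' deposited table (adjusted p = 0.0162). Mtfmt, which formylates the initiator tRNA, went from 349 to 499 and rose by 0.52 ± 0.17 in the authors' deposited table (adjusted p = 0.0145). The median log2 change of the 12 was -0.12.

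Among 28 assembly factors, 1 rose and 1 fell in culture (7.14% called, below the background; median -0.05). Mterf4, which with Nsun4 acts late in joining the subunits, went from 603 to 879 normalized counts and rose by 0.54 ± 0.16 in the authors' deposited table (adjusted p = 0.00284). Mpv17l2, a large-subunit assembly factor of the inner membrane, went from 1662 to 1129 and fell by 0.56 ± 0.18 in the authors' deposited table (adjusted p = 0.0107). Among 19 genes of mitochondrial transcription, RNA processing and DNA replication, 16 had values above 0 (median 0.19), against 8945 of all 17503 genes. Of the 19, 1 passed (5.26%, below the background). This was Tfb2m, a transcription initiation factor, at 0.46 ± 0.18 in the authors' deposited table (adjusted p = 0.0357).

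Of 9 regulators of mitochondrial biogenesis, 1 rose and 1 fell in culture (22.2% called, near the background). Gabpb1, a subunit of the ETS-family factor NRF-2, went from 819 to 1330 normalized counts and rose by 0.70 ± 0.17 in the authors' deposited table (adjusted p = 0.000388). Ppargc1a, the coactivator PGC-1α, went from 2197 to 1421 and fell by 0.63 ± 0.20 in the authors' deposited table (adjusted p = 0.00941). Gabpa, the DNA-binding partner of Gabpb1 and the most abundant of the list in culture, stood at -0.37 ± 0.16 in the authors' deposited table and did not pass (adjusted p = 0.0760).

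The RNA that these proteins hold, and the messages they translate, were also read. The ribosomal RNA genes mt-Rnr1 and mt-Rnr2 had log2 changes of -0.07 ± 0.22 and -0.13 ± 0.15 in callosum and of 0.12 ± 0.23 and 0.09 ± 0.21 in culture in the authors' deposited tables, and none passed. Of the 13 mitochondrially encoded messages, 12 were tested in callosum and 10 in culture. The tested ones had values below 0 in each system (all genes: 51.8% and 48.9% below 0), and 0 were called in either (3 and 2 at an unadjusted p under 0.05 by DESeq2). The signs describe the list, and no test was made over it. Some of its genes had few reads: in callosum the mean normalized counts of mt-Co2 and mt-Co3 were 19.9 and 21.4, against 189277 for mt-Co1. In culture mt-Co2 and mt-Co3 had neither a p-value nor an adjusted p. They stood above 0, at log2 changes of 1.09 and 1.75 in the authors' deposited table. Their mean normalized counts there, 236 and 349, were well above the lowest mean of a tested gene (8.52), and why they were untested is not given. The untested mt-Nd4l stood below 0 in both systems, at a log2 change of -0.19 in callosum and -0.56 in culture in the authors' deposited tables. The share of all mean normalized counts held by mt-Rnr2 was 4.35% in callosum and 18.4% in culture.

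Markers of other cells moved with the labels, and in bulk RNA fewer cells of a type and less RNA per cell cannot be told apart. In callosum, 9 of 12 microglia markers were higher in libraries labelled Qk-KO, with a summed fitted CPM of 450 in WT and 990 in Qk-KO. Of 10 astrocyte markers 2 were higher there, Gfap and Aqp4, and of 10 oligodendrocyte markers 4 were higher. The 11 neuron, 7 precursor and 10 cell cycle markers included 0 called there. Among all genes of callosum 2.09% were called higher and 0.231% lower. In culture, 8 of 10 astrocyte markers were lower (14252 to 4241 summed CPM), 7 of 10 tested neuron markers were higher (752 to 1766) and 7 of 10 cell cycle genes were higher (129 to 215). Precursor markers went both ways, with 2 higher and 3 lower of 7. Among all genes of culture 13.3% were called higher and 15.2% lower. Oligodendrocyte markers included 2 higher and 1 lower of 10, and their summed CPM of 3240 in cultures labelled WT was below that of the astrocyte markers, and the values are those of whole cultures. Both tested microglia markers of culture were lower, and C1qa, C1qb, Itgam and Trem2 were listed at 0 there. The part of these shifts in the values of the mitochondrial ribosomal protein genes was not tested.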

How the data were processed

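The authors used FastQC, TopHat2 2.0.14, featureCounts and DESeq2 with build mm10, per the submitters' processing notes. The strand setting, annotation and model formula were not given in the sources used here. The deposited library columns are log2 values of fitted means plus 1, within 1e-06 of a constant factor within a genotype. The deposited mean is a normalized signal (counts over size factors, by the file headers). The log2 fold change as deposited is WT over Qk-KO and was turned round, the deposited score is that change over its standard error, and the deposited p-value columns are raw and Benjamini-Hochberg adjusted. No replicate spread is in the files, so no test was refitted. Changes in callosum and culture were compared by a z test. Its trial on simulated data drew normal changes with the deposited errors, as the test itself assumes. The trial therefore does not check the test for few libraries or for separate fits. Annotation came from GENCODE M21, to which all 77 genes matched by identifier (55 with version). Tools were Python 3.11.15, numpy 2.4.6, pandas 2.3.3, scipy 1.17.1 and matplotlib 3.10.9.

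The genes and lists were chosen with earlier results of these data known. Named in full were called genes, the 3 most abundant genes that did not pass, genes called in the difference, untested genes, genes fixed for their role (Mrpl12, Mrpl10, Mrpl11, Mrps12, Mrpl45, Mrps30, Mrps18a, Mrps36 and Mrps6), and of each further list up to 3 called genes and an abundant one that did not pass.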

Additional observations from a re-analysis of the deposited data

Results flagged for a closer look

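The change differed between culture and callosum for 3 genes, by a z test of the difference with adjusted p under 0.05. The difference, culture minus callosum on the log2 scale, was 0.6831 for Mrpl32, -0.7603 for Mrps6 and 0.5124 for Mrpl50.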

How the results depend on the processing

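Leaving out replicates could not be run, since the files hold fitted means. No paired analysis was possible because the library columns carry no replicate spread, although the cultures form 3 pairs by passage. In callosum the count of called genes stayed at 0 and the median below 0 under every alternative run. In culture, where 1 gene was called higher and 7 lower, the higher count was 2 at an adjusted p under 0.1, 0 with a minimum fold of 1.5, 2 with genes of a mean of at least 100 only, 5 with scaling by library size, 0 with a Student reference, and 6 with library size without mt-Rnr1 and mt-Rnr2, chosen after seeing the data. The lower count was 3 at an adjusted p under 0.01, 11 under 0.1, 1 with the minimum fold, 10 with the filter, 9 when centred on the median of all genes, 3 with library size, 0 with a Student reference and 3 without the mitochondrial rRNAs. The culture median, -0.0805, was -0.0033 with library size and 0.0430 without the rRNAs, where every log2 change moves up by 0.1236. Of all called culture genes 46.7% were higher, 57.1% with library size and 63.2% without the rRNAs. For the difference between systems, genes with culture above callosum (2) numbered 1 under 0.01, 1 with the minimum fold and 0 with a Student reference, and genes below (1) numbered 0 under 0.01, 2 under 0.1 and 0 with a Student reference. The Student reference called 8 genes in all of callosum and 0 in culture. Of the single genes, Mrpl27, Mrpl16, Mrpl37 and Mrpl45 lost their call under both library-size scalings, and Mrps7 gained one under both and with the filter. The cause was not tested.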
